A study of Mus musculus with 8 samples.

Results

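Lysophospholipid acyltransferases put a fatty acid back onto a phospholipid that has lost one. They were described here in sorted stromal cells of the mouse large intestine through 7 genes, Lpcat1, Lpcat2, Lpcat3, Lpcat4, Mboat1, Mboat2 and Mboat7, out of 24346 gene symbols in the deposited tables. The family was chosen by the FPKM values of Lpcat4, which separated the 2 genotypes in these same libraries, so the Lpcat4 values are a description and carry no test. The other 6 genes belong to the same family and were taken with earlier results of these data known.

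RNA came from podoplanin-positive cells of whole colons that lacked CD45, CD31, EpCAM and 7AAD signal, that is, living cells depleted of leukocytes, endothelium and epithelium. All 8 mice were 12 weeks old and carried floxed Il10ra alleles, which encodes the receptor chain that binds interleukin-10. The 4 libraries labelled WT came from mice with the genotype Il10ra flox/flox and no Cre. The 4 libraries labelled cKO came from mice with the genotype Pdgfra cre; Il10ra flox/flox, in which a Cre recombinase is driven by Pdgfra, a gene of fibroblasts, so that sorted cells without Pdgfra would keep the floxed alleles. The groups therefore differ in the Cre allele as well as in Il10ra. The title of the series places the comparison in the question of how interleukin-10 reception by fibroblasts limits intestinal pathology and type I interferon signalling.

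Membrane phospholipids are remodelled in a cycle. A phospholipase A2 removes 1 fatty acid and leaves a lysophospholipid, and an acyltransferase adds another, which sets how saturated the membrane is and how much arachidonate it stores. The family has unrelated protein types. Lpcat1, Lpcat2 and Lpcat4 belong with the acylglycerolphosphate acyltransferases (AGPAT type), whereas Lpcat3, Mboat1, Mboat2 and Mboat7 are membrane-bound O-acyltransferases (MBOAT). Names in this family cross over: the RefSeq table lists LPCAT4 as a synonym of Mboat2 and LPEAT2 as a synonym of Lpcat4, and the symbols of the deposited tables are used here.

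The libraries were close in depth, which ran from 0.868 to 1.10 relative to WT replicate 1, and 15815 to 16323 genes had a value above 0. Values are FPKM, fragment numbers divided by transcript length and library total, so that levels of different genes can be set side by side. Of the 8 fibroblast markers all were measured, with a summed FPKM of 20186 to 21151 in WT and 18398 to 22355 in cKO libraries. Epithelium markers, 16 in number, were measured in spite of the EpCAM gate, with a summed FPKM of 62.9 to 140.8 in WT and 54.4 to 1140 in cKO libraries. The high values were 1140 in cKO replicate 1 and 605 in cKO replicate 2, and these libraries stood apart in several results below. Il10ra had an FPKM of 0.631 ± 0.181 in WT and 0.495 ± 0.175 in cKO libraries (SD, n = 4 each), and this level does not check the genotype, since the floxed stretch is not named in the labels.

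All 7 members were detected in every library, and their order by mean FPKM over the 8 libraries was Lpcat3, Lpcat1, Mboat7, Lpcat4, Mboat1, Lpcat2 and Mboat2. Lpcat3 at 18.7 FPKM exceeded Lpcat1 at 10.98 in 8 of 8 libraries. Lpcat1 exceeded Mboat7, at 10.1, in 6 of 8 libraries, so the order of these neighbours did not hold beyond their spread. Mboat7 exceeded Lpcat4, at 7.81, in 8 of 8 libraries. The upper 4 genes were thus expressed at a similar order of size, and the lower 3 well below them. Lpcat4 exceeded Mboat1, at 2.52, and Mboat1 exceeded Lpcat2, at 0.972, each in 8 of 8 libraries. Lpcat2 and Mboat2, at 0.968, could not be ordered, with Lpcat2 higher in 4 of 8 libraries. Lpcat3 was the largest single member and made up a mean of 36.5% of the family's summed FPKM in WT and 35.3% in cKO libraries.

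**Figure D1:**
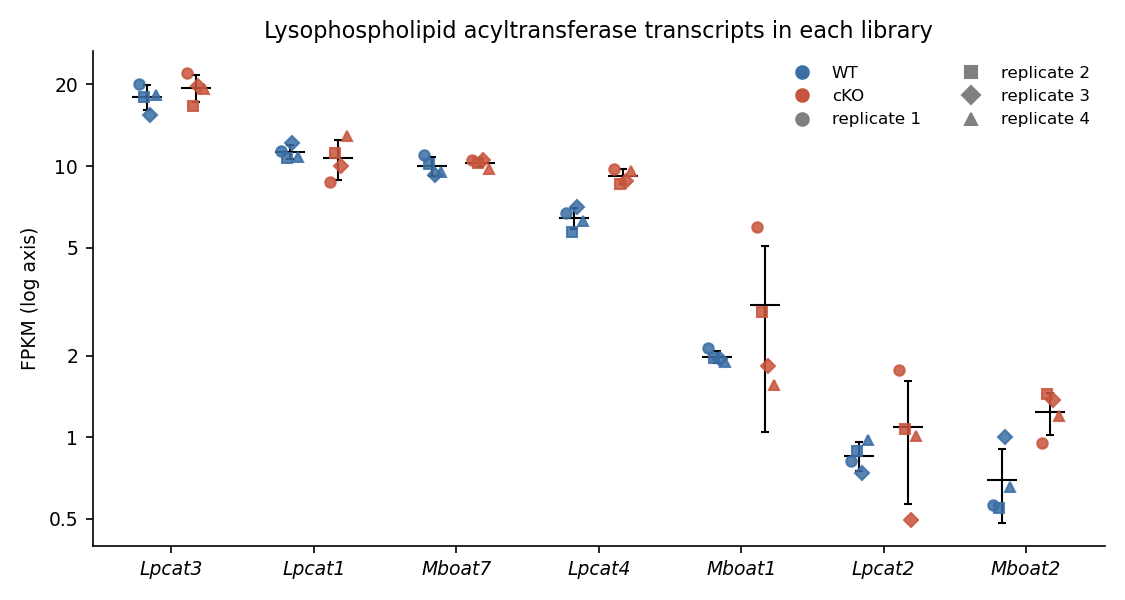
FPKM on a log axis of the 7 members in each of the 4 WT and 4 cKO libraries, with marker shape giving the replicate and black bars the mean and SD of each group. Lpcat4 is the member whose groups do not overlap, with 5.70 to 7.07 in WT and 8.57 to 9.74 in cKO, and Mboat1 and Lpcat2 each have their highest value in cKO replicate 1.

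Lpcat4, an acyltransferase of the AGPAT type that acts on lysophosphatidylcholine and lysophosphatidylethanolamine, was higher in the cKO libraries, the pattern for which the family was taken up. Its FPKM was 6.71, 5.70, 7.07 and 6.27 in the WT libraries, from replicate 1 to 4, and 9.74, 8.57, 8.81 and 9.59 in the cKO libraries. The lowest cKO library lay 1.503 FPKM above the highest WT library, a gap wider than the range within WT (1.36) or within cKO (1.17). The means were 6.43 ± 0.589 and 9.18 ± 0.577 (SD, n = 4 each), which is 42.6% higher in cKO. In log2(FPKM + 1), where low genes change by less than in log2 of FPKM itself, the difference was 0.45 (SE 0.08). Lpcat4 made up a mean of 13.1% of the family's summed FPKM in WT and 16.7% in cKO libraries.

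Among the 11506 genes whose FPKM averaged at least 1 over the libraries, the groups did not overlap for 375 genes, 3.26%, and cKO lay above WT for 1.36%. Lpcat4 is one of these by the way it was chosen, and nothing is read from that. In limma over the same genes, 1 gene, 0.00869%, was called changed at an adjusted p under 0.05, and it was not a member of the family (Mir5098, a microRNA gene, named after its values were seen). At an unadjusted p under 0.05 there were 622 genes, 5.41%, with 2.37% higher and 3.03% lower in cKO.

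The values of 6 of the 7 members could be traced to fragments. In each, the 8 FPKM values, corrected for relative depth, were whole multiples of a single unit within 0.00603 of a whole number; the unit could hold more than 1 fragment, so these are the smallest counts that fit. For Lpcat4 they were 210, 155, 226 and 201 fragments in the WT libraries, from replicate 1 to 4, and 321, 276, 302 and 304 in the cKO libraries. The totals were 792 in WT (95% exact Poisson interval 738 to 849) and 1203 in cKO (1136 to 1273). Counts and totals are not scaled for relative depth, 0.868 to 1.02 in WT and 1.01 to 1.10 in cKO libraries. The FPKM values, and not these totals, compare the groups. The intervals cover counting error only and not the variation between mice, so they do not test the genotypes. Reads copied by PCR are not independent molecules, so even the counting error may be larger. Mboat2 was the member that could not be resolved. Of the 11506 genes, 47.5% could be resolved in this way (tolerance 0.02). Lpcat2 and Mboat2 averaged under 1 FPKM and are not part of that share.

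**Figure D2:**
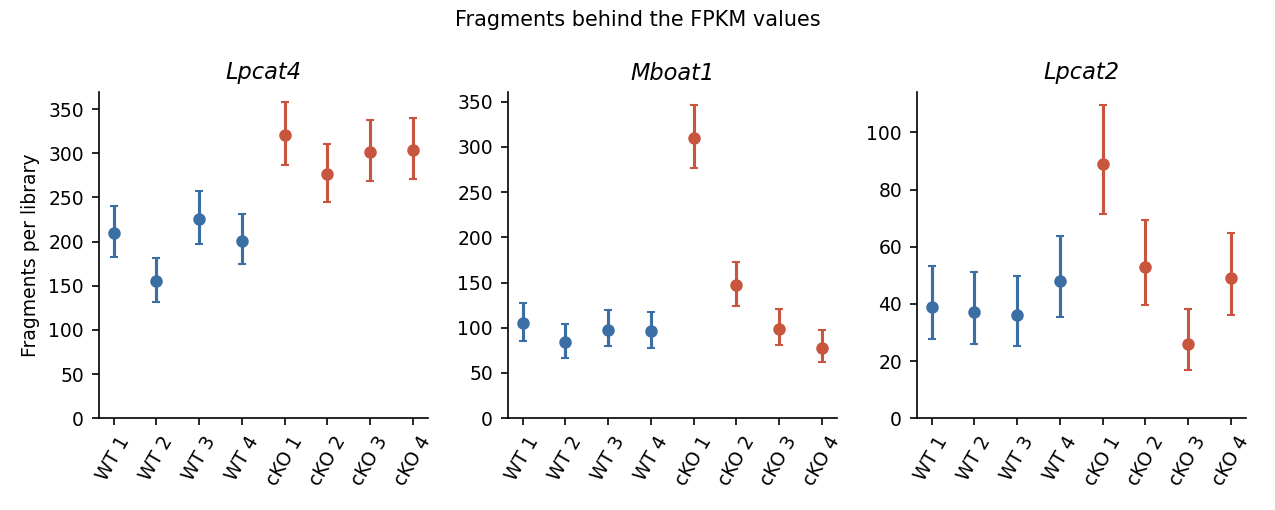
Fragments per library for Lpcat4, Mboat1 and Lpcat2, with exact Poisson 95% intervals as bars; WT libraries are blue and cKO libraries red, and each vertical axis starts at 0. For Lpcat4 the 4 cKO libraries sit between 276 and 321 and the WT libraries between 155 and 226, while Mboat1 reaches 310 in cKO replicate 1 alone and Lpcat2 stays between 26 and 89. Counts are not scaled for depth, and the bars do not cover the variation between mice.

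Markers of other cell types moved with the groups too. The 6 lymphatic endothelium markers had a summed FPKM of 1.55, 0.712, 5.47 and 1.13 in the WT libraries, from replicate 1 to 4, and 15.3, 6.18, 9.87 and 9.53 in the cKO libraries, so that these groups also did not overlap. In WT replicate 3 and the 4 cKO libraries most of the sum was Ccl21a, a chemokine gene of lymphatic vessels whose value is uncertain because near-identical copies share fragments. Its FPKM was 4.49 in WT replicate 3, at most 0.0017 in the other WT libraries and 4.81 to 11.9 in cKO. Within WT the libraries fell in the same order for the sum and for Lpcat4, and within cKO replicates 3 and 4 were in opposite order. Without Ccl21a the sum was 1.55, 0.710, 0.976 and 1.13 in WT and 3.39, 1.38, 2.68 and 1.90 in cKO, from replicate 1 to 4. The groups then overlapped, and WT replicate 3, the highest WT library for Lpcat4, was second lowest of WT. Lyve1, a hyaluronan receptor of lymphatic vessels, had 0.450 ± 0.346 and 0.811 ± 0.441 and Mmrn1 0.303 ± 0.124 and 0.922 ± 0.359. The defining genes Prox1 and Flt4 lay between 0.00963 and 0.378 FPKM in all libraries. With the mean of the lymphatic markers as a covariate, added after the values were seen, the Lpcat4 difference was 0.21 (SE 0.14) in place of 0.45. This covariate also separates the genotypes, so its part and that of the genotype cannot be told apart.

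Blood endothelium markers, 9 in number, had a summed FPKM of 6.01 to 10.1 in WT and 10.4 to 26.1 in cKO libraries, and enteric glia and neuron markers, 7 in number, 2.90 to 3.29 and 3.402 to 4.22. In the blood endothelium list Plvap had 3.57 ± 1.01 in WT and 7.07 ± 4.04 in cKO, Kdr 1.63 ± 0.643 and 2.76 ± 1.53, and Esam 0.812 ± 0.272 and 1.70 ± 0.858 (SD, n = 4 each). With the blood endothelium mean as a covariate the Lpcat4 difference was 0.39 (SE 0.11). As a mean of log2(FPKM + 1) this covariate was 0.582 to 0.853 in WT and 0.893 to 1.49 in cKO libraries. It also separates the genotypes, so its part and that of the genotype cannot be told apart. In bulk RNA, more cells of a type and more RNA per cell cannot be told apart.

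The epithelium markers all had a higher mean in cKO, 16 of 16, and their sum did not order the libraries as Lpcat4 did. In cKO replicate 4 their sum was 54.4, the lowest of all 8 libraries, and Lpcat4 was at 9.59, whereas in cKO replicate 1 the sum was 1140 and Lpcat4 was at 9.74. Without cKO replicate 1 the mean of Lpcat4 in cKO was 8.99 ± 0.537 (SD, n = 3) and the log2 difference 0.43 (SE 0.09). Without both cKO libraries highest in epithelium markers it was 0.46 (SE 0.10), and with the epithelium mean as a covariate 0.47 (SE 0.09). These fits reuse the contrast by which Lpcat4 was chosen. The fit without both epithelium-high libraries was also added after the values were seen. The part of epithelial RNA in the Lpcat4 values was not tested.

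**Figure D3:**
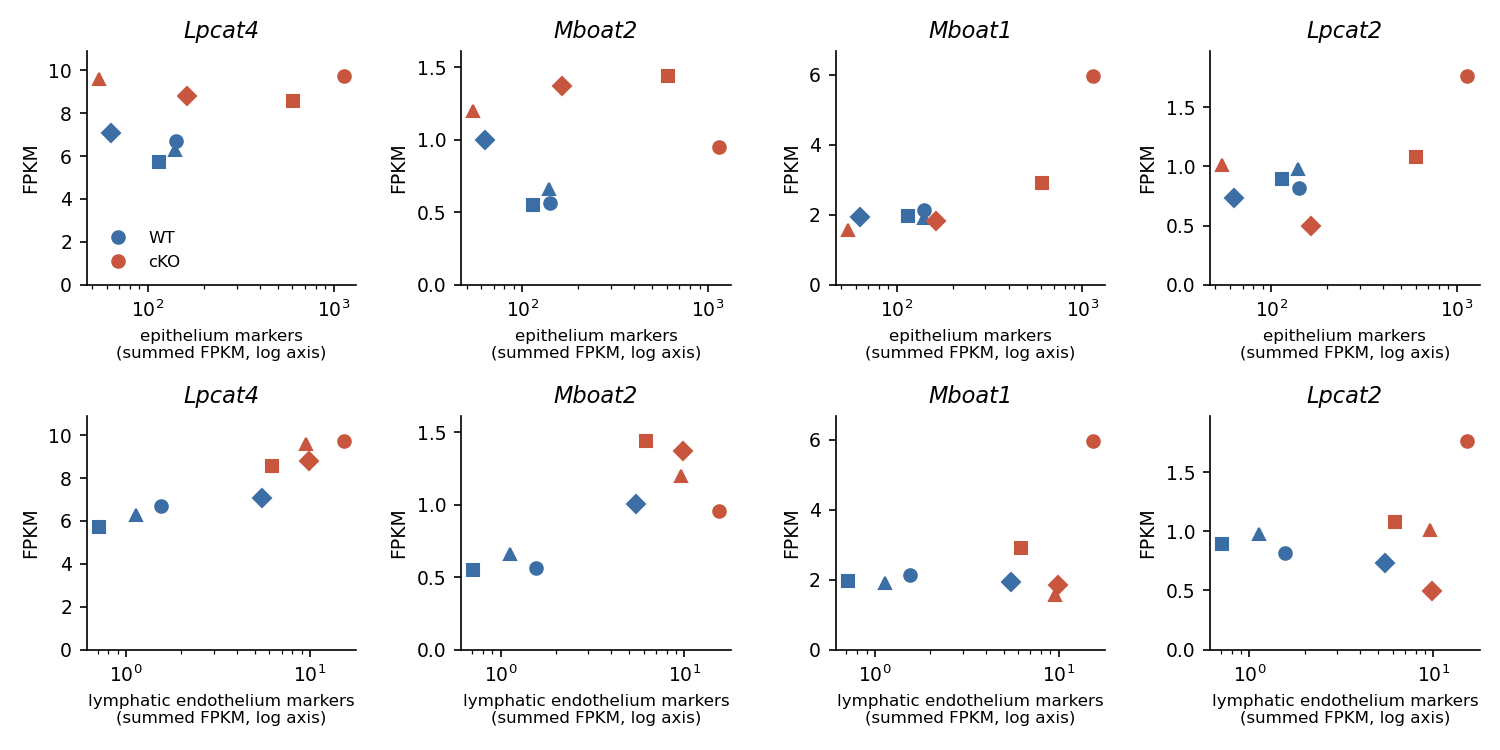
FPKM of Lpcat4, Mboat2, Mboat1 and Lpcat2 (vertical axes, from 0) against the summed FPKM of epithelium markers (upper row) and lymphatic endothelium markers (lower row) on log axes, 1 point per library, with WT blue, cKO red and the marker shape giving the replicate (circle 1, square 2, diamond 3, triangle 4). Mboat1 is highest, at 5.97 and 2.90, in the libraries with the highest epithelium sums, 1140 and 605. Lpcat4, chosen for its difference, is higher in every cKO library than in every WT library.

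Lpcat1, the other abundant enzyme of the AGPAT type, makes saturated phosphatidylcholine and platelet-activating factor. Its FPKM was 11.4, 10.7, 12.2 and 10.8 in the WT libraries, from replicate 1 to 4, and 8.71, 11.1, 10.002 and 12.9 in the cKO libraries. The cKO values fell on both sides of the WT range, and the means were 11.3 ± 0.690 and 10.7 ± 1.77 (SD, n = 4 each). The log2 difference was -0.08 (SE 0.10) and 0.00243 without cKO replicate 1, so it had no steady direction. The fragments numbered 240 to 322 in WT and 237 to 337 in cKO libraries.

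Lpcat2, which makes platelet-activating factor in inflammatory cells, was low. Its FPKM was 0.815, 0.891, 0.736 and 0.979 in the WT libraries, from replicate 1 to 4, and 1.77, 1.08, 0.496 and 1.01 in the cKO libraries, from 36 to 48 and 26 to 89 fragments. The cKO group held both the highest and the lowest library. The 12 myeloid markers were also highest in cKO replicate 1, with a summed FPKM of 181 there, where the remaining cKO libraries had 85.6 to 95.4 and the WT libraries 79.2 to 110. They were led by Lyz2 (37.7 ± 7.78 in WT and 46.6 ± 20.1 in cKO), Laptm5 (9.32 ± 1.49 and 11.5 ± 4.31) and Tyrobp (8.70 ± 3.90 and 10.8 ± 5.86; SD, n = 4 each). Without cKO replicate 1 the log2 difference of Lpcat2 moved from 0.14 (SE 0.17) to -0.00857. The part of myeloid cells in the Lpcat2 value was not tested.

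Lpcat3, the enzyme that places polyunsaturated fatty acids into phosphatidylcholine and phosphatidylethanolamine, was the most abundant member. WT replicates 1 to 4 had an FPKM of 20.2, 18.02, 15.5 and 18.3, and cKO replicates 1 to 4 had 22.0, 16.7, 19.8 and 19.3. The ranges overlapped, with means of 17.99 ± 1.93 and 19.5 ± 2.18 (SD, n = 4 each) and a log2 difference of 0.11 (SE 0.10). Its size rested on single libraries, with 0.040 without WT replicate 3, 0.048 without cKO replicate 1, 0.16 without WT replicate 1 and 0.17 without cKO replicate 2. The gene shares 334 bp of exons with Emg1 on the other strand, which was at 52.7 FPKM, and no strand-aware counting is given in the sources used here, so fragments of this stretch cannot be assigned.

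Mboat7 attaches arachidonate to lysophosphatidylinositol. Its FPKM was 11.01, 10.2, 9.31 and 9.50 in the WT libraries, from replicate 1 to 4, and 10.6, 10.3, 10.6 and 9.76 in the cKO libraries. All cKO values lay inside the WT range, and the log2 difference was 0.04 (SE 0.07). Leaving out 1 library gave 0.00815 (without WT replicate 3) to 0.082 (without WT replicate 1), with 0.017 without WT replicate 4. Its exons share 277 bp with Tsen34 on the other strand, at 87.4 FPKM, so its level is uncertain in the same way.

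Mboat1, which transfers oleate to lysophosphatidylethanolamine and lysophosphatidylserine, had the widest spread among the cKO mice relative to its mean (coefficient of variation 65.9%). Its FPKM was 2.13, 1.96, 1.94 and 1.90 in the WT libraries, from replicate 1 to 4, and 5.97, 2.90, 1.83 and 1.56 in the cKO libraries. The cKO libraries with the highest epithelium sums were above the WT range and the other 2 below it. The log2 difference was 0.33 (SE 0.27) over all libraries, 0.03 (SE 0.15) without cKO replicate 1, and -0.15 (SE 0.12) without the 2 libraries highest in epithelium markers. The leading epithelium markers were Guca2a, a hormone of goblet cells and enterocytes (18.1 ± 9.51 FPKM in WT and 114 ± 128 in cKO), Car1 (21.7 ± 11.3 and 100.2 ± 85.3) and Krt8 (15.0 ± 4.15 and 58.0 ± 70.5; SD, n = 4 each). The part of epithelial RNA in the Mboat1 values was not tested.

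Mboat2, which acts on lysophosphatidylcholine and lysophosphatidylethanolamine with a preference for oleate, came closest to Lpcat4 in separating the groups. Its FPKM was 0.564, 0.550, 1.00 and 0.657 in the WT libraries, from replicate 1 to 4, and 0.953, 1.44, 1.37 and 1.20 in the cKO libraries. WT replicate 3 lay above cKO replicate 1 by 0.0491 FPKM, and the other cKO values were above all WT values. The means were 0.693 ± 0.211 and 1.24 ± 0.218 (SD, n = 4 each). A limma fit of all 18065 genes above 0 gave a log2 difference of 0.41 (SE 0.11, unadjusted p = 0.00576, adjusted p = 0.914). In that fit 5.2% of genes had an unadjusted p under 0.05 and 0.00554% were called. Over the alternative settings the difference ran from 0.34 (SE 0.13) with quantile normalization to 0.78 (SE 0.24) with a pseudocount of 0.1 in place of 1. In contrast to Mboat1, Mboat2 was lower in cKO replicate 1 than in the other cKO libraries.

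A mean FPKM of at least 1 was asked for in the test, and 5 of the 7 members passed it. Lpcat2 and Mboat2 missed it at 0.972 and 0.968. Of the 4 tested members other than Lpcat4, limma called 0 over all genes (adjusted p = 0.929 to 0.975), and 0 had an unadjusted p under 0.05. Without the filter limma gave Lpcat2 an adjusted p of 0.933. Summed over the type, the 3 AGPAT-type genes had 18.6 ± 1.17 FPKM in WT and 20.95 ± 1.80 in cKO, with overlapping libraries, and the 4 MBOAT genes 30.7 ± 2.52 and 34.05 ± 3.75 (SD, n = 4 each). The AGPAT-type sum contains Lpcat4, which was chosen for its difference (means 6.43 and 9.18). Of the other genes in it, Lpcat1 had a lower mean in cKO (11.3 and 10.7) and Lpcat2 a higher one (0.855 and 1.09). The sum is therefore not read as a rise of the type.

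The genes lie on 6 chromosomes in the GENCODE annotation of GRCm38. Lpcat4 is a compact gene of 7644 bp (chromosome 2, 112239468 to 112247111, plus strand) with 1 coding transcript of 14 exons, and no annotated gene overlaps it. Lpcat1 (chromosome 13, 73467197 to 73516422) and Mboat1 (chromosome 13, 30136489 to 30246717) share a chromosome without being neighbours. Lpcat2 (chromosome 8, 92855339 to 92919279) shares 287 bp of exons with the antisense gene Gm45472, and Mboat2 (chromosome 12, 24830879 to 24964397) shares 107 bp with 2900060N12Rik, a non-coding gene on the other strand. Lpcat3 lies on chromosome 6 (124663027 to 124704418) and Mboat7 on chromosome 7 (3677789 to 3693523, minus strand).

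RefSeq start-site windows of 300 bases (250 before and 50 after the start, GRCm38.p6) were matched for all 7 members and searched on both strands, because the study asks about interferon. The Lpcat4 window was 79% G and C, higher than 98.6% of the 32851 windows compared. It held no match to the IRF element (AANNGAAA), the interferon-stimulated response element core (which contains the IRF element), the STAT site (TTCNNNGAA), the liver X receptor repeat (2 copies of AGGTCA spaced by 4 bases), CCAAT or TATAAA. The shares of all windows with a match were 23.9%, 3.44%, 8.30%, 0.0152%, 37.4% and 13.6%. They are over windows of any G and C content, so the lack of matches in the Lpcat4 window is not read as a result. The windows of Lpcat4, Mboat2 and Mboat7 lie wholly downstream of the GENCODE gene starts given above, so the sequence before those starts was not searched. The Lpcat2 window held 2 IRF element matches, shown because they are the member matches to that motif on the coding strand, with the match in capitals.
Lpcat2, chr8:92855135-92855142: acccccAAATGAAAtaggtt
Lpcat2, chr8:92855157-92855164: cccaggAAACGAAAcacgcc
The Lpcat3 window held 1 IRF element match on the opposite strand and 4 CCAAT matches. A match is a description of letters and not of a bound site, and neither Lpcat2 nor Lpcat3 separated the groups.

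Genes of the same lipid cycle were read from lists chosen for their function, 93 tested genes in all. Limma called 0 of the 93. At an unadjusted p under 0.05 it gave 2 higher and 3 lower genes, 5.38% of the 93, which is near the 5.41% of all tested genes. Each single list held at most 2 such genes. The median log2 difference was 0.01, against -0.01 over all tested genes, and 57.0% of the 93 had a difference above 0, against 47.4% of all tested genes. Their differences ran from -0.29 to 0.34, beside 0.45 for Lpcat4, which was chosen for its difference.

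The other acyltransferases of lysophospholipids and glycerol phosphate, 11 tested, had a median of 0.02. Of these 0 were called, and 1 rise and 1 fall had an unadjusted p under 0.05. Agpat6, now named Gpat4, catalyses the first step of glycerolipid synthesis. Its FPKM was 33.1 ± 0.765 in WT and 29.7 ± 1.51 in cKO (SD, n = 4 each), with all cKO libraries below all WT libraries (log2 difference -0.15, SE 0.05, adjusted p = 0.897 in limma). Agpat2, which makes phosphatidic acid, had 11.1 ± 0.985 and 12.8 ± 1.13, and Lpgat1, which acylates lysophosphatidylglycerol, 8.14 ± 1.45 and 9.62 ± 0.753. Agpat4 was the most abundant of this list at 50.1 ± 4.55 and 49.0 ± 5.28. The other MBOAT enzymes, 4 tested, had a median of 0.02 and 0 at an unadjusted p under 0.05. They included Dgat1, the triglyceride-forming enzyme (17.2 ± 1.62 and 19.1 ± 2.24), the Wnt acyltransferase Porcn (7.31 ± 0.377 and 7.76 ± 0.717) and the cholesterol esterifying Soat1 (7.29 ± 0.736 and 6.92 ± 0.760).

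Phospholipases, which supply the lysophospholipids that these enzymes use, had a median of -0.03 over 12 tested genes, with 1 lower at an unadjusted p under 0.05 and 0 called. Pla1a, a phospholipase of phosphatidylserine, had an FPKM of 24.1 ± 3.47 in WT and 19.8 ± 1.81 in cKO (SD, n = 4 each; log2 difference -0.26, SE 0.11, adjusted p = 0.897 in limma). Pla2g4a, the cytosolic phospholipase A2 that releases arachidonate, was the most abundant at 36.1 ± 3.38 and 38.0 ± 2.28. Pnpla8 was at 23.6 ± 1.31 and 22.5 ± 1.49, and Pnpla7 at 3.52 ± 0.336 and 3.08 ± 0.639.

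Enzymes that break lysophospholipids down, 10 tested, had a median of 0.05, with 1 higher at an unadjusted p under 0.05 and 0 called. In Abhd6, a hydrolase of monoacylglycerol and lysophospholipids, all cKO libraries were above all WT libraries (5.56 ± 0.745 FPKM and 7.07 ± 0.464, SD, n = 4 each; log2 difference 0.30, SE 0.09, adjusted p = 0.897 in limma). Abhd16a was the most abundant at 65.8 ± 2.24 and 61.6 ± 7.17, followed by Abhd4 at 50.9 ± 3.94 and 48.4 ± 6.18. Gpcpd1 was at 13.9 ± 1.02 and 15.0 ± 1.21.

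Platelet-activating factor, the lipid mediator that Lpcat1 and Lpcat2 make, is cleared by acetylhydrolases. That list, 5 tested with the receptor gene Ptafr below the filter, had a median of 0.01 and 0 at an unadjusted p under 0.05. Pafah1b2 had 36.1 ± 1.26 FPKM in WT and 36.4 ± 2.02 in cKO, Pla2g7, the secreted acetylhydrolase, 17.9 ± 1.61 and 17.9 ± 2.36, Pafah1b3 7.86 ± 0.388 and 8.28 ± 1.72, and Pafah2 3.32 ± 0.568 and 3.48 ± 0.561 (SD, n = 4 each). Signalling by lysophosphatidic acid, 8 tested, had a median of -0.01 and 0 at an unadjusted p under 0.05. Ppap2b, now named Plpp3, dephosphorylates that lipid and was far above the acyltransferases at 587 ± 8.51 and 555 ± 30.8. The receptor gene Lpar1 was at 178 ± 11.5 and 179 ± 10.7, Lpar4 at 2.99 ± 0.464 and 2.69 ± 0.177, and Ppap2c at 2.51 ± 0.337 and 3.59 ± 1.43.

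The synthesis of phospholipids de novo, 21 tested, had a median of 0.02, and the supply and desaturation of acyl-CoA, 13 tested, a median of 0.08, both with 0 at an unadjusted p under 0.05. In the first list Pcyt2, the pacing enzyme of phosphatidylethanolamine synthesis, was at 14.3 ± 2.99 FPKM in WT and 16.7 ± 2.31 in cKO, and the cardiolipin synthase Crls1 at 4.24 ± 1.91 and 5.34 ± 0.893 (SD, n = 4 each). Cept1 was at 22.2 ± 0.857 and 20.9 ± 1.40, Pisd at 28.6 ± 0.744 and 29.99 ± 1.73, and Cdipt at 26.0 ± 2.02 and 26.1 ± 2.13. In the second, the desaturase Fads1 was at 42.5 ± 5.101 and 46.8 ± 4.01, Acsl3 at 6.55 ± 0.773 and 7.58 ± 1.35, and the elongases Elovl1, Elovl5 and Elovl6 at 63.3 ± 4.58 and 65.6 ± 3.10, 53.3 ± 4.73 and 56.4 ± 4.58, and 2.55 ± 0.698 and 3.04 ± 0.574.

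Lpcat3 is known as a target of the liver X receptors and works beside the sterol regulators. That list, 9 tested, had a median of 0.04, with 1 lower at an unadjusted p under 0.05 and 0 called. Abca1, a cholesterol exporter and another target of these receptors, had 11.5 ± 1.15 FPKM in WT and 9.32 ± 1.69 in cKO (SD, n = 4 each; log2 difference -0.29, SE 0.12, adjusted p = 0.897 in limma), with overlapping libraries, while the Lpcat3 difference was 0.11. The receptor gene Nr1h2 was at 28.9 ± 2.36 and 30.1 ± 1.27, Srebf1 at 24.4 ± 2.23 and 26.0 ± 1.07, and Srebf2 at 34.6 ± 6.62 and 38.4 ± 2.98.

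**Figure D4:**
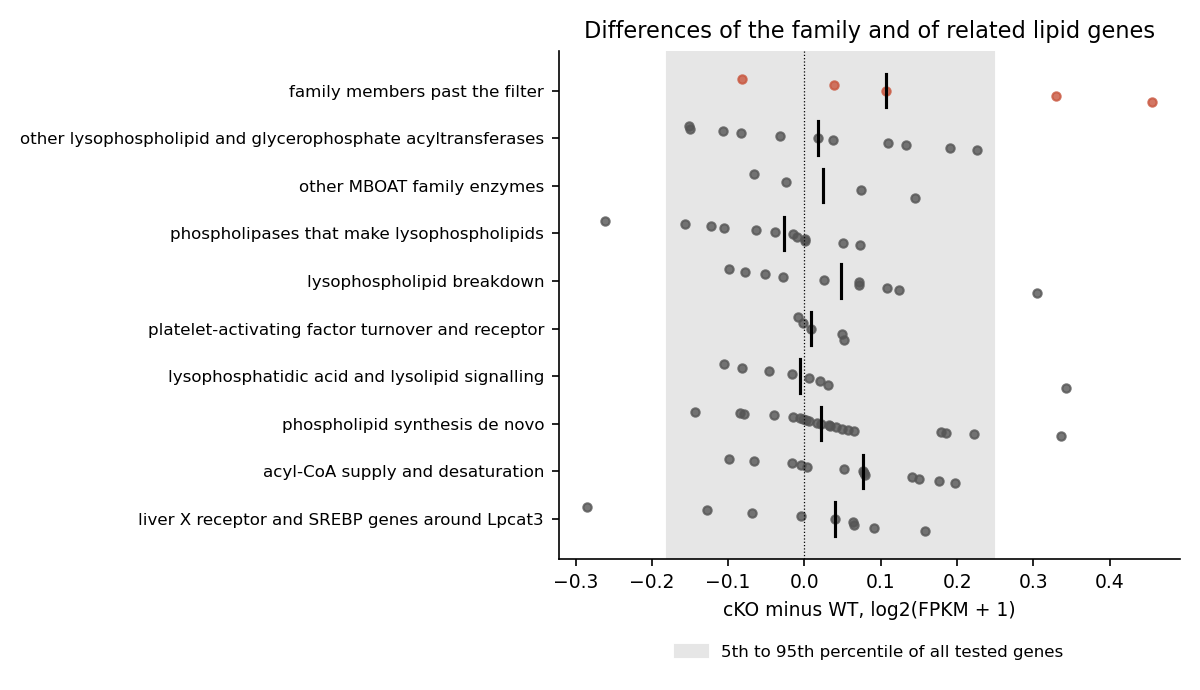
Difference cKO minus WT on the log2(FPKM + 1) scale for each tested gene (points) of the family (red) and of 9 lists of related lipid genes (grey), with the median of each list as a black line and the 5th to 95th percentile of all tested genes, -0.18 to 0.25, shaded. Lpcat4, chosen for its difference, at 0.45 and Mboat1 at 0.33 (-0.15 without the 2 cKO libraries highest in epithelium markers) lie beyond the shaded range, as do the list genes Ppap2c at 0.34, Crls1 at 0.34, Abhd6 at 0.30, Pla1a at -0.26 and Abca1 at -0.29.

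The genes most like Lpcat4 over the 8 libraries were ranked by Pearson's r of log2 values, as a description that the genotype difference shared by these genes helps to set. They were Zswim8, a substrate receptor of a ubiquitin ligase (r = 0.954), the small GTPase gene Rasd1 (0.940), Znf512b (0.937), Ccdc58 (0.937) and Apip, of methionine salvage (0.923). Rasd1 had an FPKM of 19.6 ± 1.74 in WT and 24.7 ± 1.09 in cKO, and Apip 16.2 ± 0.427 and 19.8 ± 1.54 (SD, n = 4 each). With each group's mean taken off, so that only the variation between mice of 1 genotype counts, the highest were Zscan21 (0.979), Ggta1 (0.960), Ccdc58 (0.960), Wnt4 (0.956) and Zfp523 (0.950). Ccdc58 was in both rankings, at 7.11 ± 0.872 and 8.86 ± 0.777. Both rankings use the same 8 libraries and take the top of all tested genes. High values are picked in any case, and nothing is read from them. The other tested members were not close to Lpcat4 on this measure: r was 0.395 for Lpcat3, 0.426 for Mboat1, 0.188 for Mboat7 and -0.19 for Lpcat1 over the 8 libraries. With the group means taken off r was 0.135, 0.212, -0.197 and 0.191 in the same order of genes.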

How the data were processed

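The authors deposited 1 table of FPKM values per library, each listing 24346 gene symbols. In the submitters' processing notes stand mm10, Cufflinks 2.2.1, Cuffdiff, TopHat2 2.1.1, SAMtools 0.1.18 and Bowtie2 2.3.5.1. Which annotation and settings they used is not given in the sources used here. An FPKM value depends on the length model and on the fragments of the whole library, so a few high genes lower all others.

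From the deposited FPKM, log2(FPKM + 1) was taken, and the 11506 genes averaging at least 1 FPKM were fitted with limma 3.58.1 in R 4.3.3 (trended eBayes, 2 groups, 4 libraries each, Benjamini-Hochberg over all genes, adjusted p under 0.05). The procedure was tested on simulated data only with shifts larger than the difference of any member. Its power for differences of the members' size was not tested. Groups and replicate numbers came from the titles; each library is a mouse, per the series' design text. Relative depth came from the steps of values under a mean FPKM of 0.3. The series holds no counts in the files used here, so no count model was run. Members, gene lists and markers were chosen with earlier results of these data known. Named genes were the members, Il10ra and Pdgfra (158 ± 1.91 and 155 ± 19.0 FPKM, SD, n = 4 each), the 3 smallest unadjusted p-values and the 2 most abundant genes of each list, the 5 genes most like Lpcat4 by each measure, the 3 most abundant markers of a cell type set beside a result, and genes that overlap a member. Of the symbols, 23310 matched GENCODE. Same-numbered libraries did not stand out as pairs in the correlation of deviations from the group means. It was 0.018 to 0.091 for the same number and -0.123 to 0.131 for different numbers. Alternatives covered pseudocount, filter, normalization, eBayes options, array weights, replicate block, marker covariates and left-out libraries; Python 3.11.15 with pandas 2.3.3 was used for tables.

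Further marker lists gave summed FPKM in WT and cKO libraries of 52.8 to 91.0 and 39.5 to 179 (lymphoid and plasma cell), 165 to 209 and 154 to 243 (smooth muscle and pericyte), 10.6 to 17.8 and 8.40 to 106 (mesothelium), 0.338 to 0.713 and 0.329 to 0.653 (adipocyte), and 0.779 to 1.70 and 0.389 to 2.49 (mast cell).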

Additional observations from a re-analysis of the deposited data

Results flagged for a closer look

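In groups of 4, a library was singled out where its gap to the nearest other, relative to the group's range, exceeded Dixon's 95% critical value, which chance gives in about 1 in 20 groups; 9 of 114 values met this. None was a member of the acyltransferase family. In cKO replicate 1, Pdgfra was at 126.3 FPKM, against 163 to 167 in the other cKO libraries, Cdipt at 29.3 against 24.7 to 25.2, the myeloid markers at a sum of 181 against 85.6 to 95.4, and the blood endothelium markers at 26.1 against 10.4 to 12.5. In WT libraries, Agpat4 was at 56.9 in replicate 2 against 47.6 to 48.3, Pafah1b3 at 8.43 in replicate 3 against 7.58 to 7.72, Ppap2b at 574 in replicate 1 against 590 to 591, Cdipt at 22.99 in replicate 3 against 26.6 to 27.3, and the smooth muscle and pericyte markers at 209 in replicate 4 against 165 to 168.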

How the results depend on the processing

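Lpcat4 was higher in cKO in all 23 alternative settings, with a log2 difference of 0.21 with the lymphatic endothelium covariate, 0.41 to 0.50 when 1 library was left out and 0.51 with a pseudocount of 0.1. Because Lpcat4 was chosen for groups that do not overlap, leaving out libraries could not change its direction. The count of settings is a description and lends the difference no support. Of the other members and of the pathway genes, 0 were called in each of the 23 settings. Over all genes the number called was 1 to 4 with 1 library left out (3 without WT replicate 3, 4 and 2 without cKO replicates 1 and 2), 4 without the 2 cKO libraries highest in epithelium markers, and 0 with the lymphatic covariate. With the replicate number as a block 1 gene was called. Each number holds 1 WT and 1 cKO library, so the Lpcat4 difference of 0.45 could not move in that fit. No WT library correlated best with the cKO library of its own number. Of the cKO libraries, only replicate 1 correlated best with the WT library of its number. Of 133 recomputed values of the 6 other members, 14 changed direction. The filter, the eBayes options and the replicate block cannot move a log2 difference, so values from those settings kept their direction in advance. The count is therefore no measure of how steady the directions were. Lpcat1 turned to 0.043 with the epithelium covariate, 0.043 with the lymphatic and 0.12 with the blood endothelium covariate, 0.00243 without cKO replicate 1 and 0.011 without the 2 epithelium-high libraries. Lpcat2 turned to -0.038 with the epithelium and -0.17 with the blood endothelium covariate, -0.00857 without cKO replicate 1, and -0.095 without those 2, and its highest value was 0.287, without cKO replicate 3. Mboat1 turned to -0.081, -0.22 and -0.28 with the epithelium, lymphatic and blood endothelium covariates and to -0.15 without those 2, and Lpcat3 to -0.00513 with the blood endothelium covariate. The cause was not tested. The covariates of both endothelia and the setting without 2 libraries were chosen after seeing the data. The order of the members by level changed only between Lpcat2 and Mboat2 when 1 library was left out. Lpcat2 rests on 26 to 89 fragments a library, which limits its precision.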
